A study of Mus musculus with 21 samples.

Results

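The serotonin receptor genes examined here are 10 listed members of the 5-hydroxytryptamine receptor family, *Htr1a*, *Htr1b*, *Htr1d*, *Htr1f*, *Htr2a*, *Htr2c*, *Htr3a*, *Htr4*, *Htr5a* and *Htr7*, taken by symbol from the 35266 genes of the deposited tables. All 10 were found, and the rule that picks them uses the symbols alone. RNA-Seq was performed on fluorescent neurons picked by hand from the arcuate nucleus of male mice aged 46 to 56 days on a C57BL/6J background. AGRP neurons came from NPY-hrGFP mice and POMC neurons from Pomc-GFP mice, in which fluorescence marks cells that drive the *Pomc* reporter, and every library held 44 to 214 cells of 1 mouse. Mice either ate ad libitum (fed) or received water alone for 24 h (food deprived, FD), which gave 5 AGRP fed, 6 AGRP FD, 5 POMC fed and 5 POMC FD libraries. Every mouse, the fed ones included, was moved alone to a fresh cage a day before collection. The AGRP cells were recognised by a reporter of *Npy* and not of *Agrp*, so the label rests on neurons of this nucleus that express both. Libraries held 9822298 to 37663979 gene counts (median 19189780), so that the floor of 3 counts lay between 0.0911 and 0.294 normalized CPM, the counts scaled to a common library size.

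Serotonin is released in the hypothalamus by axons of raphe neurons and is known for reducing food intake. Most of its receptors are G protein-coupled. The 5-HT1 and 5-HT5 classes couple to Gi/o proteins, which lower cyclic AMP and open inward rectifier potassium channels. The 5-HT2 class couples to Gq/11 and phospholipase C, the 5-HT4 and 5-HT7 receptors couple to Gs and raise cyclic AMP, and the 5-HT3 receptors are cation channels. In the arcuate nucleus the 5-HT2C receptor is best known from POMC neurons and the 5-HT1B receptor from AGRP neurons.

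The labels of the libraries were checked against their markers. *Agrp* and *Npy* together reached 12100 to 68900 TPM, a level scaled by gene length and library in AGRP libraries and 5.45 to 226 in POMC libraries. *Pomc* and *Cartpt* reached 8810 to 37200 TPM in POMC libraries and 114 to 227 in AGRP libraries. The summed TPM of 4 markers each for astrocytes, microglia, endothelial cells, and ependymal cells and tanycytes stayed at 14.7 or less in every library, and 4 oligodendrocyte markers summed to 16.0 to 47.8. The 6 markers of other arcuate neurons, *Kiss1*, *Tac2*, *Th*, *Slc6a3*, *Ghrh* and *Sst*, summed to 442 to 2350 TPM in AGRP libraries and 0.892 to 214 in POMC libraries. In AGRP libraries *Sst* alone was at 440 to 2330 TPM, and each of the other markers was at 29.8 TPM or less. Among the markers, *Kiss1* was at 0 counts throughout both AGRP groups and the POMC fed group, *Tac2* and *Cx3cr1* throughout AGRP FD, *Ccdc153* throughout both FD groups, and *Itgam* and *Cldn5* throughout all groups except AGRP FD. The serotonergic neuron markers *Tph2*, *Slc6a4* and *Fev* summed to 9.35 TPM or less, with *Fev* at 0 in every library. The part of these other cells in the receptor values was not tested. In libraries of many cells, fewer cells with a receptor and less transcript in each cell cannot be told apart.

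The reference sequence upstream of 5 members is shown. *Htr1a* and *Htr2a* are the members called with food deprivation, *Htr1b* and *Htr1f* are those that were at or near 0 in POMC neurons, and *Htr2c* is shown beside *Htr2a* as the other 5-HT2 member. *Htr4*, which differed between the cell types, is not shown. Each stretch is RefSeq sequence of build GRCm38.p6, written 5′ to 3′ on the strand of the gene, and ends before the first annotated transcribed base. Capitals mark a match, on either strand, to 1 of 6 motifs that are spelled out after the sequences.
*Htr1a*, chr13:105443443-105443638, plus strand: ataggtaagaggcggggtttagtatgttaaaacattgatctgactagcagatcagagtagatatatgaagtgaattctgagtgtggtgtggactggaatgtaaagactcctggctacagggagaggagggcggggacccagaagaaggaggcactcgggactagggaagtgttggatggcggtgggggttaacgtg
*Htr1b*, chr9:81633833-81634082, minus strand: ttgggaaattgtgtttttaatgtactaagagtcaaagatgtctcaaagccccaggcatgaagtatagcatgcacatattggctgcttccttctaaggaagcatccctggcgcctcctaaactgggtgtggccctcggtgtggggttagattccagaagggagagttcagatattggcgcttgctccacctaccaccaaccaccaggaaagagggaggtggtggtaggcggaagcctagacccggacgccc
*Htr1f*, chr16:65105855-65106034, minus strand: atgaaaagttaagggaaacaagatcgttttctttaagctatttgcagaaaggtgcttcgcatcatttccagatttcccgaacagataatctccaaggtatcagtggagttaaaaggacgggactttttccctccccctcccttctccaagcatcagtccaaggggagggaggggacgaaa
*Htr2a*, chr14:74640624-74640839, plus strand: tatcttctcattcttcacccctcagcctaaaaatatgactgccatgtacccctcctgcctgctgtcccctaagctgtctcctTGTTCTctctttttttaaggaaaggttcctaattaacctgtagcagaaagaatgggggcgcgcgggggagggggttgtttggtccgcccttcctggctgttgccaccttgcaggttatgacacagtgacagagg
*Htr2c*, chrX:146962263-146962512, plus strand: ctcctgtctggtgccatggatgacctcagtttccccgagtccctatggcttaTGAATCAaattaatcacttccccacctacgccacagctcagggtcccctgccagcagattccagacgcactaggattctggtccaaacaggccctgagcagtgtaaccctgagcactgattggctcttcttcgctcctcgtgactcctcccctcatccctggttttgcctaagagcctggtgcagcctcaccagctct

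Of these 5 stretches, that of *Htr2a* held 1 match to AGAACA, which reads TGTTCT on the strand shown, and that of *Htr2c* held 1 match to TGANTCA, and the other 3 held no match. Over the 250 bases upstream of 32848 RefSeq starts, the glucocorticoid receptor half-site AGAACA was present in 16.1% and the AP-1 motif TGANTCA in 6.75%. The half-site of the cyclic AMP response element, TGACG, was present in 17.8%, and the E-box CACGTG in 6.02%. The TATA box TATAAA was present in 12.4%, and the FOXO core GTAAACA in 3.17%. The stretches of *Htr1a*, *Htr1f* and *Htr2a* are shorter than these windows, and a match describes letters only. *Htr1a*, *Htr1b*, *Htr1d* and *Htr1f* are each read from 1 coding exon, whereas *Htr2a* has 3 and *Htr2c* has 4.

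The order of the receptors in each group was described in TPM, which is scaled by gene length. In AGRP neurons from fed mice *Htr1a* was the most abundant member at 38.8 ± 5.90 TPM (SD, n = 5), and it made up 44.1% of the summed TPM of the 10 genes. *Htr5a* followed at 22.7 TPM and *Htr1b* at 8.29 TPM. The library ranges of *Htr1a* and *Htr5a* did not overlap with the next gene in the order, whereas *Htr1b* exceeded *Htr2a* in 2 of 5 libraries only. *Htr2a* (7.81 TPM), *Htr1f* (5.96), *Htr7* (1.67), *Htr4* (1.41), *Htr2c* (1.06), *Htr1d* (0.220) and *Htr3a* (0) each overlapped with the next.

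In AGRP neurons from FD mice the order was led by *Htr2a* at 29.8 ± 8.27 TPM (SD, n = 6), or 41.3% of the sum. *Htr2a* exceeded *Htr5a*, the next member at 15.1 TPM, in 6 of 6 libraries, although their ranges overlapped. *Htr1b* (11.7 TPM) and *Htr1a* (7.88 TPM) came next. From the second place down every neighbour overlapped with the next.

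POMC neurons carried a different set. In fed mice *Htr5a* (13 TPM), *Htr2c* (10.8), *Htr4* (10.4) and *Htr7* (10.1) had nearly equal means with overlapping ranges, and *Htr2a* (3.47) and *Htr1a* (2.76) were lower. In FD mice the order was *Htr5a* (23.1 TPM), *Htr4* (20.1), *Htr1a* (14.8), *Htr2c* (12.7), *Htr7* (7.53) and *Htr2a* (6.84), each overlapping with the next. After *Htr2a* there was a gap without overlap to *Htr1b* at 0.0906 TPM. *Htr1b*, *Htr1d*, *Htr1f* and *Htr3a* each averaged under 0.1 TPM in both POMC groups.

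**Figure D1:**
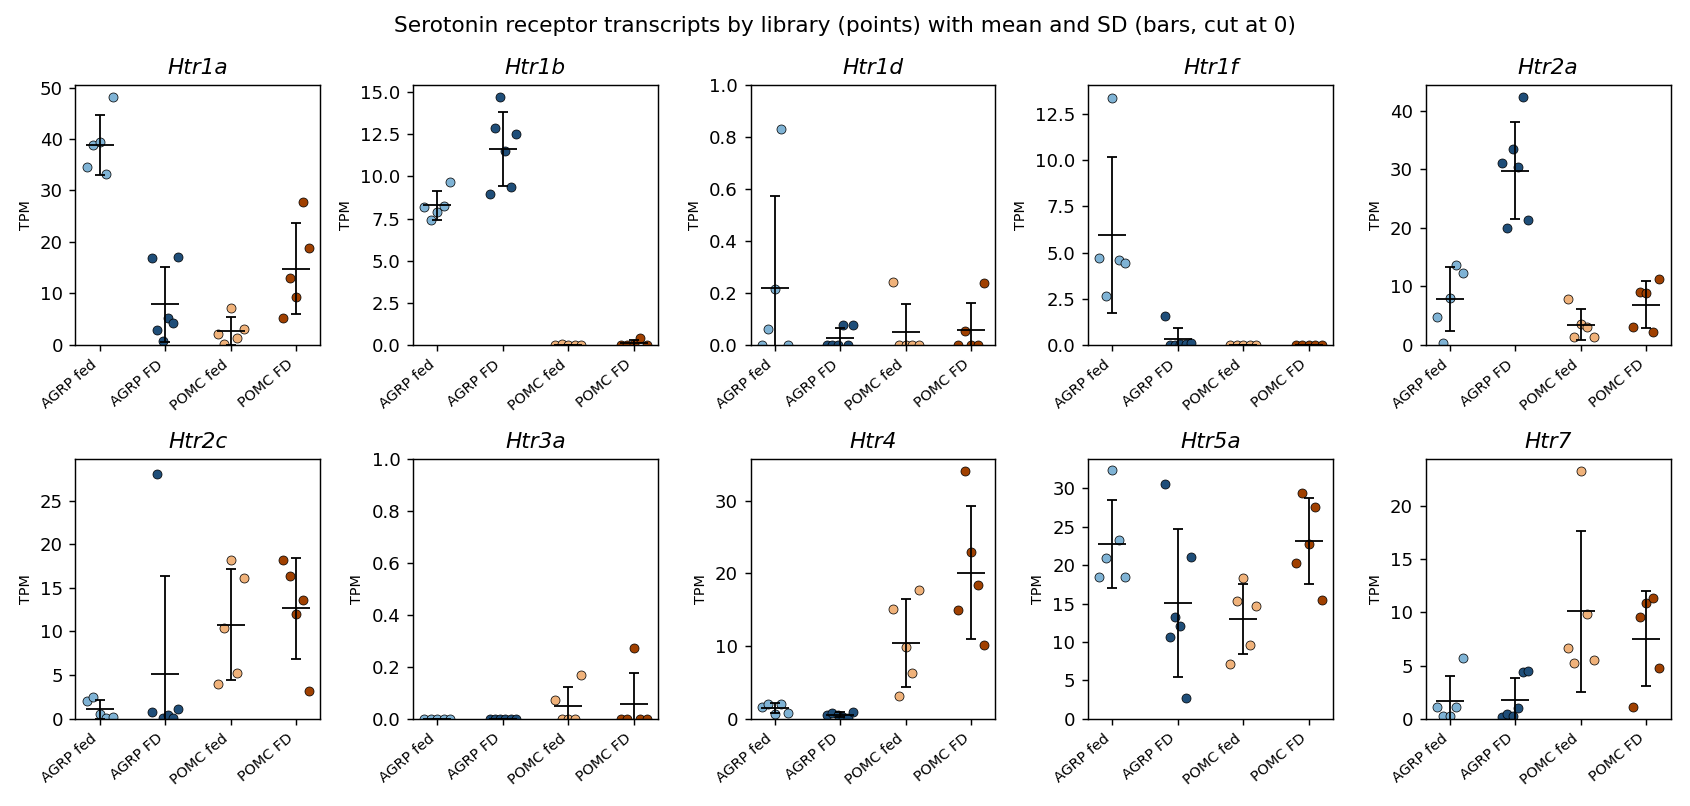
Level of each of the 10 serotonin receptor genes in TPM (y axis, linear, each panel with its own scale) in AGRP fed, AGRP FD, POMC fed and POMC FD neurons. Points are libraries, and bars are the mean and SD, cut at 0. *Htr1a* lay at 33.1 to 48.1 TPM in AGRP fed libraries and at 17.1 or less in AGRP FD libraries, while *Htr2a* lay at 19.9 to 42.3 TPM in AGRP FD libraries and at 13.7 or less in AGRP fed libraries.

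Differences were tested with edgeR's quasi-likelihood test on the counts of all libraries, and q is its Benjamini-Hochberg adjusted p-value over 16513 genes with CPM over 1 in at least 3 libraries. Of the 10 members 8 passed this filter, and *Htr1d* and *Htr3a* did not. *Htr1b* and *Htr1f* passed it through AGRP libraries alone, so their difference between the cell types is in part fixed by the filter. *Htr1f* passed it through the AGRP fed libraries, since of the AGRP FD libraries only replicate 1 was over 1 CPM. Its difference between fed and FD is thus in part fixed as well. Fold changes are log2 differences of normalized CPM. The test gives no SE, so each SE is the absolute log2 change divided by the square root of the F statistic. The comparisons share libraries with each other, so their values are not independent.

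Food deprivation in AGRP neurons was associated with changes in 2 of the 8 tested members, in opposite directions. *Htr2a* rose, against 5.87% of all tested genes called higher, and *Htr1a* fell, against 4.43% called lower. Each call is 1 gene of 8, and nothing is read from that share about the family. Library values did not overlap between fed and FD for 3 of the 8 members, *Htr1a*, *Htr1f* and *Htr2a*, against 7.65% of all tested genes. For *Htr1f* this is in part fixed by the filter, which it passed through AGRP fed libraries. The median log2 change of the 8 members was -0.04, beside -0.02 for all tested genes.

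*Htr1a* (ENSMUSG00000021721, chromosome 13, 105443693 to 105448133, mm10) encodes the Gi/o-coupled 5-HT1A receptor, an inhibitory receptor and the autoreceptor of raphe neurons. In AGRP neurons from fed mice it was at 34.5, 38.9, 39.4, 33.1 and 48.1 TPM. In AGRP neurons from FD mice it was at 16.9, 2.91, 0.783, 5.19, 4.32 and 17.1 TPM. The 6 FD libraries fell into 4 low and 2 intermediate values, all below the lowest fed library.

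The fitted change of *Htr1a* was -2.12 on the log2 scale (SE 0.626, edgeR q = 0.0259), from 49.2 ± 8.45 (n = 5) to 11.3 ± 9.63 normalized CPM (n = 6). Its q ranged from 0.000388 to 0.195 over 9 alternative analyses, of which the scaling by spike-in RNA did not call it. Leaving out AGRP fed replicate 5 or AGRP FD replicate 2, 4 or 5 gave q of 0.0529, 0.0588, 0.054 and 0.0579, with log2 changes of -2.03, -1.97, -2.07 and -2.0. The direction was the same in both age cohorts that held fed and FD libraries. At day 46 to 47 the FD mean was 9.41 and the fed mean 51.3 normalized CPM, and at day 54 to 56 they were 13.2 and 47.3, without overlap in either cohort.

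*Htr2a* (ENSMUSG00000034997, chromosome 14, 74640840 to 74706859) encodes the Gq/11-coupled 5-HT2A receptor, which raises excitability in many cortical neurons. In AGRP neurons from fed mice it was at 4.81, 0.242, 8.04, 13.7 and 12.3 TPM. In AGRP neurons from FD mice it was at 31.1, 19.9, 33.5, 30.4, 42.3 and 21.3 TPM. All FD libraries were above all fed libraries, and the fed libraries ranged widely, with replicate 2 at 4 counts.

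The fitted change of *Htr2a* was 2.20 (SE 0.635, edgeR q = 0.023), from 6.53 ± 4.64 (n = 5) to 29.9 ± 8.48 normalized CPM (n = 6). Its q ranged from 0.00147 to 0.797 over the 9 alternatives, again with only the spike-in scaling above the threshold. Without AGRP fed replicate 1 or 3 or AGRP FD replicate 5 the q was 0.0648, 0.0515 and 0.051, with changes of 2.06, 2.21 and 2.07. The FD and fed means were 27.4 and 10.9 normalized CPM at day 46 to 47, and 32.5 and 2.05 at day 54 to 56, so the fed level of the 2 cohorts differed more than the FD level.

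Beside each other, the TPM of *Htr2a* divided by that of *Htr1a* was 0.139, 0.00622, 0.204, 0.413 and 0.255 in the AGRP fed libraries. It was 1.84, 6.85, 42.8, 5.86, 9.80 and 1.24 in the AGRP FD libraries. *Htr1a* was thus above *Htr2a* in 5 of 5 fed libraries and below it in 6 of 6 FD libraries. This ratio was chosen after the values were seen and was not tested. In POMC neurons it spanned 0.435 to 19.9 in fed libraries, with 3 of 5 above 1, and 0.0768 to 0.95 in FD libraries, with 0 of 5 above 1.

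**Figure D2:**
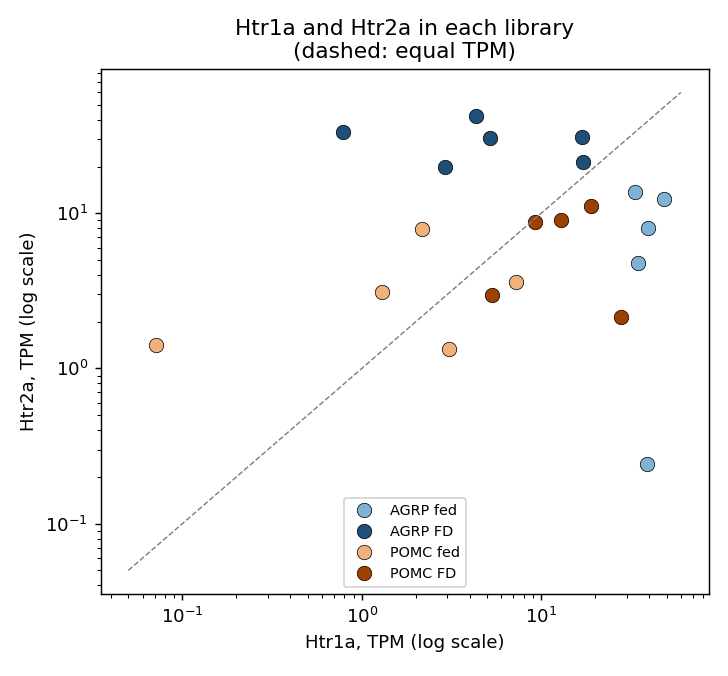
TPM of *Htr1a* (x axis, log scale) against TPM of *Htr2a* (y axis, log scale), each point 1 library coloured by group, with a dashed line at equal TPM. The 6 AGRP FD libraries lie above the line and the 5 AGRP fed libraries below it.

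*Htr1f* (ENSMUSG00000050783, chromosome 16, 64924729 to 65105784) encodes a further Gi/o-coupled receptor, the target of a group of migraine drugs. It was at 70, 37, 155, 68 and 60 counts in AGRP fed libraries, or 4.69, 2.65, 13.4, 4.58 and 4.45 TPM. In AGRP FD libraries it was at 20, 0, 0, 2, 1 and 1 counts, with 1.54 TPM in replicate 1 and at most 0.093 in the others. The groups did not overlap.

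The change of *Htr1f* did not pass the test (log2 change -4.21, SE 1.44, edgeR q = 0.0679). It passed in 3 of 9 alternatives, with q of 0.000174 by limma-voom, 0.0328 by DESeq2 and 0.0282 in a fit of the AGRP libraries alone. It also passed without AGRP FD replicate 1 (-6.58, q = 0.00765). Since *Htr1f* passed the filter through AGRP fed libraries, no conclusion is drawn from these q. Means at day 46 to 47 were 3.22 in fed and 0.384 normalized CPM in FD libraries, and at day 54 to 56 they were 2.62 and 0.0619.

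*Htr1b* (ENSMUSG00000049511, chromosome 9, 81628291 to 81633828) encodes the Gi/o-coupled receptor found on many axon terminals. It was the steadiest member in AGRP neurons from fed mice, at 8.19, 7.43, 7.91, 8.23 and 9.70 TPM. In FD mice it was at 8.94, 12.9, 14.7, 11.5, 9.39 and 12.5 TPM, which overlapped with the fed range. The log2 change was 0.75 (SE 0.617, edgeR q = 0.53).

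The locus of *Htr1b* overlaps the gene *D430036J16Rik*, and the counting did not use strand. *D430036J16Rik* was itself at 0.161 to 10.8 TPM in AGRP libraries and at 2.64 or less in POMC libraries, so reads near the overlap are uncertain for both genes.

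*Htr5a* (ENSMUSG00000039106, chromosome 5, 27841947 to 27855086), a Gi/o-coupled receptor, was the member most evenly shared by the groups. It ranged from 18.5 to 32.4 TPM in AGRP fed, 2.71 to 30.6 in AGRP FD, 7.05 to 18.3 in POMC fed and 15.5 to 29.4 in POMC FD libraries. The log2 change with food deprivation was -0.39 in AGRP neurons (SE 0.356, edgeR q = 0.585) and 0.73 in POMC neurons (SE 0.374, edgeR q = 0.448). No comparison of *Htr5a* passed the test.

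*Htr2c* (ENSMUSG00000041380, chromosome X, 146962513 to 147197277) encodes the Gq/11-coupled 5-HT2C receptor, the target of the appetite-suppressing drug lorcaserin. In AGRP fed libraries it was at 2.03, 2.49, 0.515, 0.1 and 0.147 TPM. In AGRP FD libraries it was at 0.766, 28.1, 0.109, 0.460, 0.090 and 1.11 TPM. The 28.1 TPM of replicate 2 came from 903 counts, while the other 5 libraries held 3 to 30.

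The fitted change of *Htr2c* in AGRP neurons was 2.59 (SE 1.06, edgeR q = 0.13), and it was -0.90 without AGRP FD replicate 2 (q = 0.561). The direction therefore rested on this library. Replicate 2 also had more *Th* (29.8 TPM, against 1.34 to 11.5 in the other FD libraries), *Slc6a3* (7.48 against 0 to 0.636) and *Slc6a4* (9.29 against 0 to 2.70). The other markers of the same lists were not higher in it. *Tph2* was at 0.06 TPM (0 to 0.287 in the others), *Sst* at 1910 (440 to 2330), and *Fev*, *Ghrh*, *Kiss1* and *Tac2* at 0. The *Pomc* level of replicate 2 was 7.35 TPM, the others being at 11.1 to 60.9. Its *Htr4* and *Htr7* levels, 0.812 and 0.395 TPM, lay within the range of the others. The part of other cells in the *Htr2c* value was not tested.

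Of the Gs-coupled members, *Htr4* (ENSMUSG00000026322, chromosome 18, 62324204 to 62467802) was at 0.606 to 2.05 TPM in AGRP fed and 0.097 to 0.956 in AGRP FD libraries, with a log2 change of -1.22 (SE 0.538, edgeR q = 0.166). *Htr7* (ENSMUSG00000024798, chromosome 19, 35958734 to 36057373) was at 0.204 to 5.72 TPM in AGRP fed and 0.121 to 4.48 in AGRP FD libraries. Its log2 change was 0.32 (SE 0.875, edgeR q = 0.888).

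*Htr1d* (ENSMUSG00000070687, chromosome 4, 136423524 to 136444398) had at most 15 counts in any library, in AGRP fed replicate 4. *Htr3a* (ENSMUSG00000032269, chromosome 9, 48899214 to 48911099), the subunit that every 5-HT3 channel needs, had 0 counts in all 11 AGRP libraries and at most 4 in a POMC library. Differences in either gene were not detectable at this depth.

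**Figure D3:**
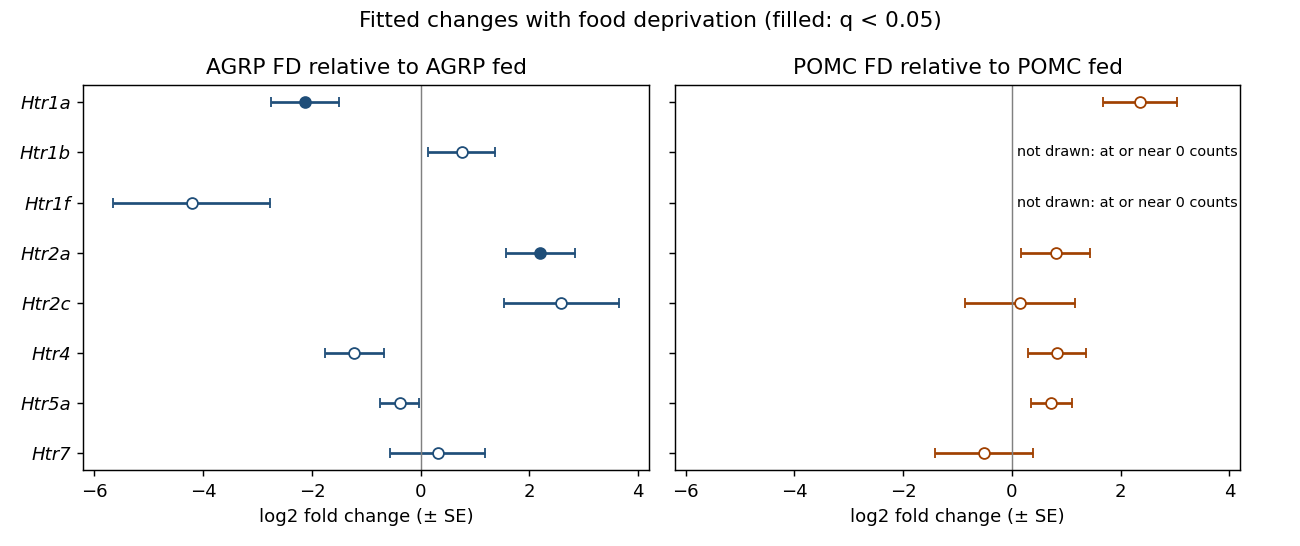
Log2 fold change with food deprivation (x axis, bars are the SE derived from the F statistic of the edgeR test) of the 8 tested receptor genes in AGRP neurons (left) and POMC neurons (right), with filled points at q under 0.05. *Htr1b* and *Htr1f* are not drawn for POMC neurons, where they were at or near 0 counts. *Htr1a* lies at -2.12 in AGRP and 2.35 in POMC neurons, and only *Htr1a* and *Htr2a* in AGRP neurons are filled.

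In POMC neurons none of the 8 tested members passed the test with food deprivation, where 0.182% of all tested genes were called higher and 0.194% lower. By edgeR *Htr1a* had an unadjusted p under 0.05, and limma-voom and DESeq2 also called 0 members. The p of *Htr1b* is not read, since this gene passed the filter through AGRP libraries alone and was near 0 counts in POMC neurons. Library values overlapped for every member, while 2.35% of all tested genes did not overlap. The median log2 change of the 8 members was 0.76, beside -0.02 for all tested genes. It includes *Htr1f*, at 0 in every POMC library, and *Htr1b*, near 0 counts.

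*Htr1a* was at 2.17, 0.071, 7.19, 1.29 and 3.07 TPM in POMC fed libraries. It was at 5.30, 12.9, 9.26, 27.7 and 18.9 TPM in POMC FD libraries. Of the FD libraries 4 lay above the highest fed library. The log2 difference was 2.35 (SE 0.678, edgeR q = 0.108), and q ranged from 0.0565 to 0.399 over 9 alternatives. It passed only without POMC fed replicate 3 (3.04, q = 0.046). Within day 54 to 56, which held all 5 FD and 3 fed libraries, the means were 19.5 and 5.13 normalized CPM. Among the libraries with 1 µl of spike-in RNA, 3 of each condition, they were 12.1 and 5.13.

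*Htr1a* fell in AGRP neurons, and its fitted difference in POMC neurons was positive without passing the test. The difference between the responses was tested as an interaction. The AGRP change less the POMC change of *Htr1a* was -4.47 (SE 0.923, edgeR q = 0.00263), and it passed in 7 of 8 alternatives and in each of 21 fits without 1 library. *Htr1a* was the only member called in this comparison, where 4.08% of all tested genes were called higher and 2.63% lower. The interaction of *Htr2a* was 1.39 (SE 0.875, edgeR q = 0.402), so a difference of its response between the cell types was not shown. That of *Htr4* was -2.05 (SE 0.76, edgeR q = 0.107), which passed by DESeq2 only (q = 0.0482). For *Htr2c*, *Htr5a* and *Htr7* the interaction was 2.44, -1.11 and 0.83, with edgeR q of 0.363, 0.22 and 0.779.

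No other member passed the test in POMC neurons. *Htr5a* had means of 23.2 ± 7.5 in fed and 38.4 ± 8.94 normalized CPM in FD libraries (SD, n = 5 each), further apart than either SD, but the libraries overlapped and it was not called. *Htr2a* was at 1.34 to 7.89 TPM in fed and 2.13 to 11.2 in FD libraries (log2 difference 0.80, SE 0.633, edgeR q = 0.668). *Htr2c* was at 3.96 to 18.2 and 3.16 to 18.2 TPM (0.15, SE 1.01, edgeR q = 0.982), and its sign changed in several alternatives. *Htr4* was at 3.15 to 17.7 and 10.1 to 34.1 TPM (0.83, SE 0.537, edgeR q = 0.576). *Htr7* was at 5.2 to 23.3 and 1.10 to 11.4 TPM (-0.52, SE 0.9, edgeR q = 0.892). Under scaling by spike-in RNA, which moved the median log2 change of all genes to -1.12 in this comparison, the differences of *Htr2a*, *Htr2c*, *Htr4* and *Htr5a* were also negative, at -0.35, -0.77, -0.11 and -0.36.

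*Htr1b* held 1 count over all POMC fed libraries and 7 over all POMC FD libraries, 6 of them in replicate 4. The ratio of pooled CPM was 8.73, with an exact 95% counting interval of 1.12 to 393 that covers counting error only. *Htr1f* held 0 counts in all 10 POMC libraries, which allows up to 0.0275 CPM over the fed and 0.0343 CPM over the FD libraries.

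The comparison of AGRP with POMC neurons addressed which receptors separate the 2 cell types. In fed mice *Htr1a* was called higher in AGRP neurons, against 3.33% of all tested genes, and *Htr4* was called lower, against 4.24%. Library values did not overlap for *Htr1a*, *Htr2c* and *Htr4*, against 8.93% of all tested genes. *Htr1b* and *Htr1f* passed the count filter through AGRP libraries alone, so they are described by their counts, without a q, and are not counted with these.

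The difference of *Htr1a* between AGRP and POMC neurons of fed mice was 3.69 on the log2 scale (SE 0.714, edgeR q = 0.000642), and it passed in 9 of 9 alternatives. For *Htr1b*, 1073 counts in AGRP fed libraries stood against 1 count in POMC fed libraries, a ratio of pooled CPM of 1210 with an exact 95% counting interval of 217 to 48000. For *Htr1f*, 390 counts stood against 0, so that the pooled CPM was at least 147-fold higher in AGRP neurons with a floor of 3 counts over the POMC group.

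*Htr4* was lower in AGRP than in POMC neurons of fed mice by a log2 difference of -3.05 (SE 0.582, edgeR q = 0.00054), and of the 9 alternatives only the spike-in scaling did not call it (q = 0.129). *Htr2c* had a log2 difference of -3.47 (SE 1.12, edgeR q = 0.0546) without overlap of the libraries, and it passed in 6 of 9 alternatives. *Htr7* had a log2 difference of -2.74 (SE 0.961, edgeR q = 0.0825), and it passed in 4 of 9 alternatives and without AGRP fed replicate 5 (-4.09, q = 0.0142). *Htr2a* and *Htr5a* had q of 0.486 and 0.386 in edgeR.

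In FD mice *Htr2a* was called higher in AGRP neurons, where 9.28% of all tested genes were called higher, and *Htr4* was called lower, where 9.27% were. *Htr4* was also the member called lower in fed mice. Libraries did not overlap for *Htr2a* and *Htr4*, against 11.4% of all tested genes. *Htr1b* and *Htr1f* are again given by their counts alone, and *Htr1b* held 2234 counts in AGRP FD libraries against 7 in POMC FD libraries. *Htr1a* was not called in FD mice (log2 difference -0.79, SE 0.614, edgeR q = 0.423). Neither was *Htr5a* (-0.48, SE 0.356, edgeR q = 0.398) nor *Htr7* (-1.91, SE 0.877, edgeR q = 0.136), which passed in 1 of 9 alternatives.

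*Htr2a* was higher in AGRP than in POMC neurons of FD mice by 2.30 (SE 0.638, edgeR q = 0.00998) and passed in 9 of 9 alternatives and in each of 11 fits without 1 library. *Htr4* was lower by a log2 difference of -5.10 (SE 0.595, edgeR q = 1.48e-07) and passed in each of the same analyses. *Htr1f* rested on 24 counts in AGRP FD libraries, 20 of them in replicate 1, against 0 in POMC FD libraries. This was at least 5.96-fold in pooled CPM, but it rested largely on AGRP FD replicate 1, and no call is read from it. *Htr2c* had a difference of -1.03 (q = 0.52), which was -4.52 without AGRP FD replicate 2 (q = 0.000174).

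**Figure D4:**
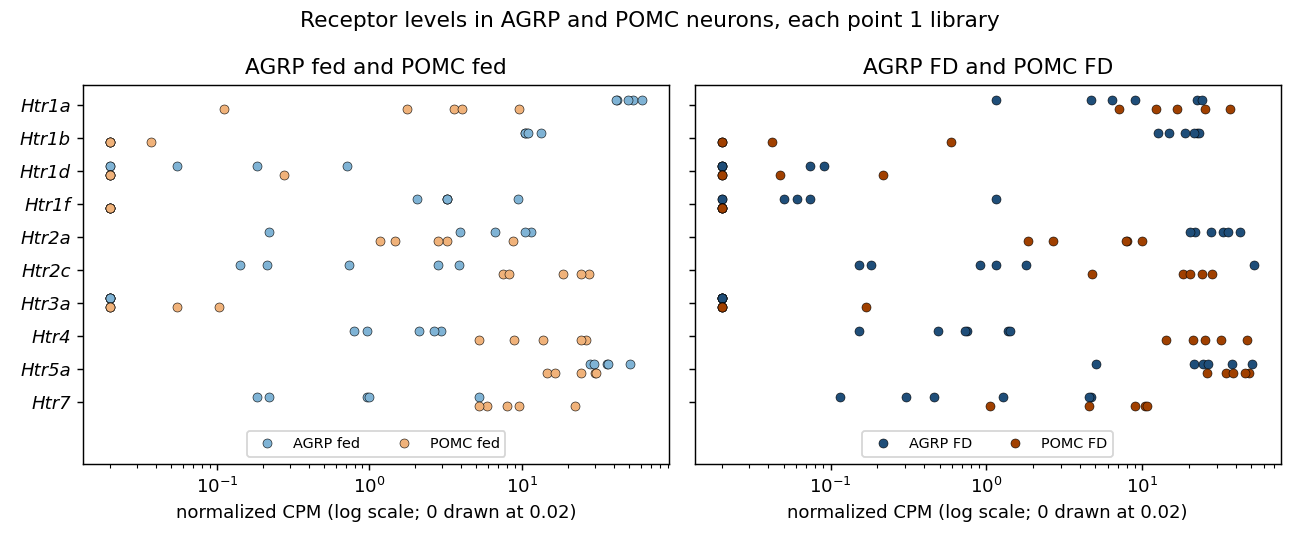
Normalized CPM (x axis, log scale, with 0 drawn at 0.02) of the 10 receptor genes in AGRP and POMC libraries of fed mice (left) and FD mice (right), each point 1 library. *Htr1b* shows no overlap in either panel, with 1073 counts in AGRP fed against 1 in POMC fed libraries, and *Htr2c* of AGRP FD replicate 2 lies apart from the other AGRP libraries at 51.9.

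The members were also summed by the G protein they couple to, as a description without a test. Gi/o-coupled receptors made up 80.5 to 93.3% of the summed TPM of the 10 genes in AGRP fed libraries and 26.0 to 64.6% in AGRP FD libraries. Gq/11-coupled receptors made up 3.64 to 15.8% and 28.5 to 66.9%. Neither share overlapped between fed and FD libraries, and both sums hold *Htr1a* or *Htr2a*. Gs-coupled members stayed at 7.09% or less in every AGRP library. *Htr6* (Gs-coupled) and *Htr2b* (Gq/11-coupled) are not among the 10 genes and are left out of these sums. *Htr6* reached 14.8 TPM in AGRP fed replicate 2 and *Htr2b* 39.6 TPM in POMC fed replicate 4. The shares therefore hold for the 10 genes only.

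In absolute terms, the Gi/o sum was 76.0 ± 11.2 TPM in AGRP fed (n = 5) and 34.9 ± 16.0 in AGRP FD libraries (SD, n = 6). The Gq/11 sum was 8.87 ± 4.43 and 34.9 ± 9.09 TPM. In AGRP FD replicate 2 this sum was 48.1 TPM, with *Htr2c* at 28.1 and *Htr2a* at 19.9 TPM. The total over the 10 genes was 88.0 ± 13 and 72.1 ± 11.6 TPM, with overlapping libraries. In POMC neurons the Gs-coupled receptors had 23.4 to 50.4% of the sum in fed and 23.2 to 39.2% in FD libraries, and the Gi/o-coupled receptors 22.0 to 43.3% and 36.9 to 55.1%. The total was 50.6 ± 19.2 TPM in POMC fed and 85.3 ± 21.8 TPM in POMC FD libraries (SD, n = 5 each), and these ranges overlapped.

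**Figure D5:**
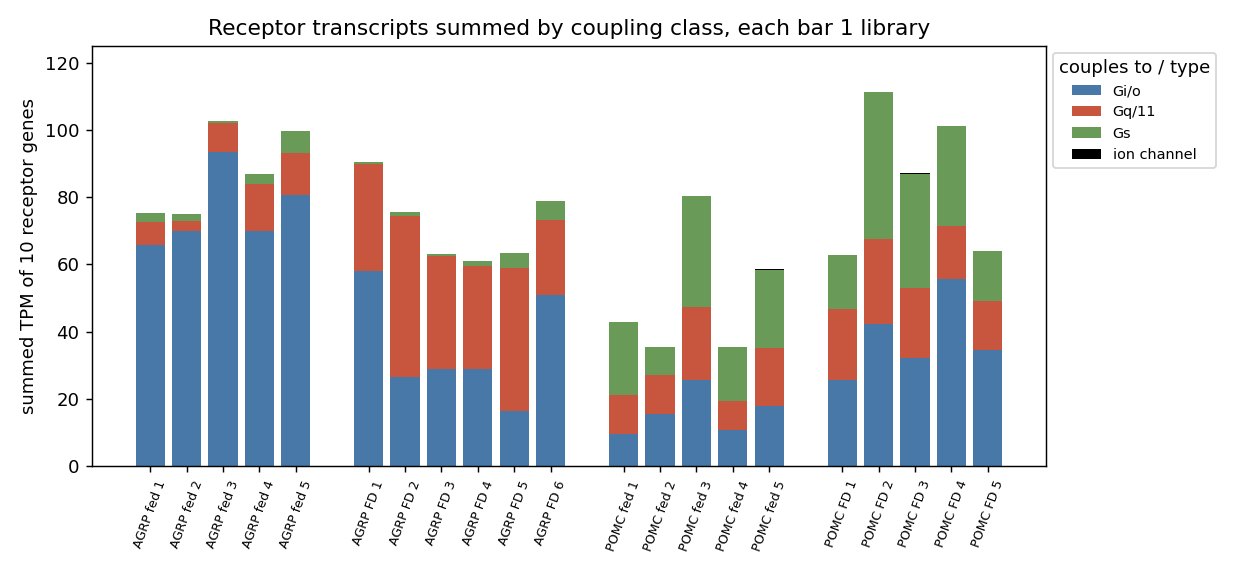
Summed TPM of the 10 receptor genes (y axis) in each library (x axis), stacked by coupling to Gi/o, Gq/11 or Gs, with the ion channel subunit on top. The Gi/o part was 65.8 to 93.4 TPM in AGRP fed libraries and 16.5 to 58 in AGRP FD libraries. The Gs part of the 10 genes was 6.44 TPM or less in AGRP and 8.35 TPM or more in POMC libraries. It leaves out *Htr6*, also Gs-coupled, which reached 14.8 TPM in an AGRP library.

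Of the 4 other serotonin receptor genes in the table, *Htr2b*, *Htr3b* and *Htr6* were tested and *Htr5b* was not, and none passed in any comparison. *Htr2b*, Gq/11-coupled, varied widely within groups, from 0.232 to 39.6 TPM. Its locus overlaps the gene *Psmd1*, which was at 123 to 522 TPM, and the counting did not use strand. Reads near this overlap are therefore uncertain. *Htr6*, Gs-coupled, ranged from 0 to 14.8 TPM. *Htr3b*, a subunit of the 5-HT3 channel, was at 0, 165, 100, 18 and 32 counts in POMC FD libraries and at 0, 1, 0, 0 and 0 in POMC fed libraries. *Htr3b* passed the count filter through POMC FD libraries alone. Its difference is thus in part fixed by the filter and is described by counts, without a q. In these libraries *Htr3a* was near 0, with 4 counts in 1 of the 5 POMC FD libraries.

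The genes around the receptors were taken from fixed lists. Of 8 tested genes of serotonin synthesis, transport and breakdown, 2 were called higher and 1 lower in AGRP neurons of FD mice, beside 5.87% of all tested genes called higher and 4.43% lower. *Slc18a2*, the vesicular monoamine transporter, rose by 1.14 (SE 0.236, edgeR q = 0.00159), from 8.86 ± 3.17 (n = 5) to 19.5 ± 5.04 normalized CPM (n = 6), and was at 167 and 159 in the POMC groups. Its call was kept in 7 of 9 alternatives and missed the threshold by limma-voom (q = 0.062). *Maob*, a monoamine oxidase, fell from 22.0 ± 10.5 to 6.62 ± 3.29 (log2 change -1.74, edgeR q = 0.00542). *Slc6a4*, the serotonin transporter, was called higher with q = 0.0449 in edgeR, but its mean of 2.05 normalized CPM in FD libraries came from AGRP FD replicate 2 at 9.49 with a median of 0.197. The call passed in 3 of 8 alternatives, and without this replicate, or without replicate 1, the gene was below the count filter. *Tph1*, 1 of the 2 enzymes that make serotonin, did not pass the filter, and *Tph2*, the other, averaged at most 1.11 normalized CPM in any group.

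Of 10 G protein alpha subunits, 1 was called higher and 2 lower in AGRP neurons of FD mice, beside the same 5.87% and 4.43% of all tested genes. *Gnas*, the Gs subunit, rose by 0.83 (SE 0.163, edgeR q = 0.000918), from 587 ± 74.2 (n = 5) to 1040 ± 269 normalized CPM (n = 6). *Gnal*, a Gs-like subunit named from olfactory neurons, fell from 512 ± 72.2 to 251 ± 36.2 (log2 change -1.03, edgeR q = 1.2e-05). *Gnai1*, a Gi subunit, fell from 228 ± 51.2 to 162 ± 26.2 (log2 change -0.49, edgeR q = 0.0243), a call lost in 3 of 9 alternatives and without AGRP fed replicate 5 or AGRP FD replicate 4 or 5. *Gnaq* and *Gna11*, the Gq/11 subunits, were not called.

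Of 20 effectors, 1 was called higher and 2 lower, beside the same shares of all tested genes. *Adcy2*, an adenylyl cyclase, rose from 57.8 ± 10.9 (n = 5) to 151 ± 30.4 normalized CPM (n = 6; log2 change 1.38, edgeR q = 0.0209), without overlap, and lost its call without AGRP fed replicate 4. *Plcb1*, a phospholipase C downstream of Gq, had fed and FD means of 12.6 and 4.96 (log2 change -1.34, edgeR q = 0.039), a call lost in 3 of 9 alternatives, limma-voom among them (q = 0.215), and without AGRP fed replicate 2 or 4 or AGRP FD replicate 1, 2 or 3. *Kcnq3*, a subunit of the M-type potassium channel, had means of 291 and 140 (log2 change -1.05, edgeR q = 0.049), with 1 FD library at 425 and a median of 80.6. It kept its call in 6 of 9 alternatives and in 2 of 11 fits without 1 library. In 1 of these 2 fits, without AGRP FD replicate 2, the change was -1.80 (edgeR q = 4.93e-06). Of 9 genes of receptor regulation, *Arrb1*, which encodes beta-arrestin 1, rose from 55.7 ± 13 to 141 ± 36.4 (log2 change 1.35, edgeR q = 3.91e-05) and 0 were called lower. Under spike-in scaling all of these calls in AGRP neurons were lost.

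In POMC neurons *Adcy6*, an adenylyl cyclase inhibited by Gi/o, was the only gene of these lists that was called. It rose from 54.9 ± 12.9 to 114 ± 13.1 normalized CPM (n = 5 each, log2 change 1.06, edgeR q = 0.00659) without overlap of the libraries. It passed in each of 10 fits without 1 library and lost its call under spike-in scaling.

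The genes whose levels were most like those of a changed member were found by Pearson's r of log2(normalized CPM + 1) over the 21 libraries, among 8204 genes with a group mean over 20 CPM. They are given as a description, since the libraries share group and depth. For *Htr1a* they were *Map7* (r = 0.831), *Filip1* (0.786) and *Scml4* (0.783). *Filip1* averaged 130, 44.7, 7.25 and 19.5 normalized CPM in AGRP fed, AGRP FD, POMC fed and POMC FD neurons, beside 49.2, 11.3, 3.82 and 19.5 for *Htr1a*. For *Htr2a* they were *Wdfy1* (r = 0.872), *Sgk1* (0.871) and *Ehd4* (0.859). *Sgk1*, a serum- and glucocorticoid-regulated kinase, averaged 24.9, 142, 15.1 and 19.5 normalized CPM in the same groups, beside 29.9 in AGRP FD and 6.53 or less in the other groups for *Htr2a*.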

How the data were processed

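Each library was made from hand-sorted cells of 1 mouse, amplified with the Ovation RNA-Seq System V2 and built with the Encore kit, without molecular identifiers, so intervals and floors cover counting error only. The authors trimmed reads with cutadapt 1.7.1, removed unwanted reads with Bowtie2 2.1.0, mapped to mm10 with STAR 2.4.0i and made the deposited counts with HTSeq 0.6.1p1 without strand, over 35266 Gencode genes. Deposited TPM were computed by the authors as counts over summed exon length, scaled to 1 total in all libraries. Amplification favours parts of transcripts unevenly, which limits comparisons between genes even in TPM.

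Groups came from the sample labels. Genes with CPM over 1 in at least 3 libraries (16513) were scaled by TMM and fitted with edgeR 4.0.16 (R 4.3.3), by the quasi-likelihood test, two-sided, with 4 groups over 21 libraries and Benjamini-Hochberg adjustment, called at q under 0.05. The study's methods use limma-voom, which was run as an alternative, and the fit was tested on simulated data. Reads on no gene were 25.6 to 55.3% and stayed out, as did 92 spike-in entries. Alternatives were limma-voom (limma 3.58.1), DESeq2 1.42.0, RLE scaling, no count filter, blocks for replicate number, age cohort and spike-in set, spike-in scaling, the compared groups alone, and each library left out. The members and the lists were chosen with earlier results of these data known. Members are given in every comparison, except *Htr1d* and *Htr3a*, which were not tested, and *Htr1b* and *Htr1f* in the interaction. List genes are named where they passed in a food deprivation comparison, as are the 3 genes most like each changed member over 20 CPM. *Slc6a3*, *Th*, *Htr3b* and the overlapping genes were described after their values were seen. File starts were 1 below the GENCODE M21 start for 74.4% of 31822 genes and were raised by 1. RefSeq upstream sequences were given for 8 of the 10 members. Values were summarised with Python 3.11.15, pandas 2.3.3, numpy 2.4.6, scipy 1.17.1 and matplotlib 3.10.9.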

Additional observations from a re-analysis of the deposited data

Results flagged for a closer look

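Within groups of 5 or 6 libraries, 1 library lay far from the rest in 11 of 32 groups of a member with more than 3 counts in some library, by Dixon's test at its 95% critical value. Chance flags about 1 in 20 groups of normally distributed values, a rate that does not apply to groups near 0 counts, where 1 library with counts among others at 0 always stands apart. Values are in normalized CPM.

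In AGRP fed libraries, *Htr1b* was at 13.2 in replicate 5 with the nearest library at 10.9, *Htr1d* at 0.711 in replicate 4 with the nearest at 0.182, *Htr1f* at 9.43 in replicate 3 with the nearest at 3.22, and *Htr7* at 5.25 in replicate 5 with the nearest at 0.995. In AGRP FD libraries, *Htr2c* was at 51.9 in replicate 2 with the nearest at 1.79, and *Htr1f* at 1.15 in replicate 1 with the nearest at 0.0744. In POMC fed libraries, *Htr2a* was at 8.72 in replicate 1 with the nearest at 3.22, *Htr7* at 22.3 in replicate 3 with the nearest at 9.6, and *Htr1d* at 0.276 in replicate 1, or 5 counts, with the others at 0. In POMC FD libraries, *Htr1b* was at 0.589 in replicate 4, or 6 counts, with the nearest at 0.0423, and *Htr3a* at 0.169 in replicate 3, or 4 counts, with the others at 0.

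The response of *Htr1a* to food deprivation differed between the cell types, with an AGRP change less POMC change of -4.47 on the log2 scale (SE 0.923, edgeR q = 0.00263). Under spike-in scaling it was -3.87 (q = 0.12).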

How the results depend on the processing

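Over 702 fitted values of single members under the alternatives, 648 kept their direction and their side of the threshold, 22 passed only in an alternative, 11 lost their call and 21 changed sign. The count of called members in the AGRP food deprivation comparison was 2, and 0 under spike-in scaling, where 97 of all genes were called, and 0 to 3 when 1 library was left out (0 without AGRP FD replicate 5). In POMC neurons it was 0, and 0 to 1 when 1 library was left out. For the interaction it was 1, with 2 by limma-voom, 2 by DESeq2 and 0 under spike-in scaling, where 1181, 1596 and 119 of all genes were called. In both comparisons of the cell types it was 4, beside 1250 of all genes in fed and 3064 in FD mice, and it stayed within 1.5 times of that. These counts include *Htr1b* and *Htr1f*, which passed the filter through AGRP libraries alone, so nothing is read from them. Spike-in RNA was added as 1 µl, as 10 µl or by cell number, and its counts ranged widely within groups. In AGRP FD libraries they ran from 39097 in replicate 3 to 8514459 in replicate 4, and the effect of this spread on the scaling was not tested. Spike-in scaling moved the median of all genes to -1.12 in the POMC comparison, to 1.10 between AGRP and POMC neurons of FD mice and to 1.04 in the interaction. Under it *Htr1a* (0.30) and *Htr5a* (0.78) changed sign between the cell types in FD mice, *Htr2a* (-0.35), *Htr2c* (-0.77), *Htr4* (-0.11) and *Htr5a* (-0.36) with food deprivation in POMC neurons, *Htr7* (-1.74) in AGRP neurons, and *Htr5a* (0.21) and *Htr7* (-0.41) in the interaction; the cause was not tested. With the age cohort as a block *Htr2c* in POMC neurons (-0.14) and *Htr7* in AGRP neurons (-0.25) changed sign, and with the spike-in set as a block *Htr7* in AGRP neurons did (-0.052).

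Same-numbered libraries came from different mice and correlated at -0.189 to 0.122, with 1 of 20 pairs over 0.1. With the replicate block, 2, 0, 6, 5 and 1 members were called in the comparisons of AGRP food deprivation, POMC food deprivation, the cell types in fed mice, the cell types in FD mice, and the interaction. Of all 16513 tested genes, 1488, 48, 1132, 2817 and 927 were called. The 6 include *Htr1b* and *Htr1f* and the 5 include *Htr1b*, which passed the filter through AGRP libraries alone. *Htr2c* in POMC neurons (-0.24) and *Htr7* in AGRP neurons (-0.35) changed sign under this block.

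Leaving out 1 library gave -0.90 to 3.25 for *Htr2c* and -0.19 to 1.66 for *Htr7* in AGRP neurons, -0.039 to 0.40 for *Htr2c* in POMC neurons and -1.05 to 3.10 for its interaction. In TPM or normalized CPM, 5 of 10 members had their highest group mean in an AGRP group. By Spearman's rho, 4 of the 6 most similar genes were shared with Pearson's r. The genes of *Htr2a* were the same, but for *Htr1a* only *Scml4* was shared, and *Kndc1* and *Cacnb4* replaced *Map7* and *Filip1*. Low counts limit *Htr1d* (at most 15 in a library), *Htr3a* (at most 4) and, in POMC neurons, *Htr1b* (at most 6) and *Htr1f* (0).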
